A study of Homo sapiens with 4 samples.

Results

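The 9 genes described here store, import, export or sense iron. They were taken by symbol from the deposited expression table, which holds 39519 gene rows, and all 9 were found and passed the filter on low values. They comprise the ferritin chains FTH1 and FTL, the importers TFRC and SLC11A2, the exporter SLC40A1, the heme-degrading enzyme HMOX1, the ferritin cargo receptor NCOA4, and the iron regulatory proteins ACO1 and IREB2. Expression was measured by sequencing of total RNA depleted of ribosomal RNA in U2OS cells, an established human osteosarcoma line. In the sh-PURB cells (n = 2) doxycycline (5 µg/ml, 72 h) induced a short hairpin RNA against PURB, a gene for a protein that binds single-stranded DNA and RNA. The sh-NC control cells (n = 2) received DMSO and were compared at the same 72 h. Doxycycline was given to all sh-PURB cells and to none of the controls, and its effects and those of the knockdown cannot be told apart. The labels do not say that libraries of a group came from separate cultures or which hairpins were used, so the p-values below cover the spread among 4 libraries, part of which may be technical.

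The unit was TPM, each gene's length-corrected share of the transcripts, and it holds no record of sequencing depth, which stays unknown here. Each library had 13298 to 14207 genes at 1 TPM or more, and protein-coding genes took 25.5% to 27.2% of a library. PURB mRNA, the target of the hairpin, stood at 2.46 and 2.69 TPM in sh-PURB and at 5.29 and 6.55 TPM in sh-NC, a mean at 43.5% of control (limma adjusted p = 0.102 over all genes). SPARC and VIM, expressed in bone-derived and mesenchymal cells, were at 219.5 TPM or more in every library, whereas the bone-forming cell genes SP7, ALPL and COL1A2 never exceeded 0.509 TPM. The bone genes between these levels were COL1A1, at 9.53 and 21.6 TPM in sh-PURB and at 13.6 and 39.7 TPM in sh-NC, and RUNX2, at 1.92 and 2.46 TPM in sh-PURB and at 2.43 and 3.92 TPM in sh-NC. SPP1, osteopontin, was at 6.59 and 5.80 TPM in sh-PURB and at 33.8 and 30.7 TPM in sh-NC, and fell to 19.2% of control (limma adjusted p = 0.0374). Of 8 line markers 5 were tested and all 5 were below 0, where 58.4% of all tested genes were below 0. That count depended on scaling. After median-ratio rescaling 1 was above 0 and 4 below. With TPM recomputed without dominant and mitochondrial genes 2 were above and 3 below. The part of these markers in the iron gene results was not tested. The red cell genes HBB, HBA1 and HBA2, markers of the lineage with the highest iron demand, never exceeded 0.126 TPM. Of 10 markers of other cell types 3 passed the filter, and all 10 together summed to 8.41 and 6.91 TPM in sh-PURB and to 7.45 and 9.23 TPM in sh-NC, which overlap.

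Cells take up iron bound to transferrin through the transferrin receptor, encoded by TFRC, and move it out of endosomes through the divalent metal transporter, encoded by SLC11A2. Iron that is not used is held in a shell of ferritin heavy (FTH1) and light (FTL) chains, and NCOA4 carries ferritin to lysosomes when that iron is needed. The regulatory proteins encoded by ACO1 and IREB2 bind a hairpin in certain mRNAs, the iron-responsive element. In iron-poor cells this binding blocks translation of mRNAs with the element in the 5′ untranslated region and protects the TFRC mRNA, whose elements lie in the 3′ untranslated region, from decay.

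The elements are shown because they divide the members into mRNAs with a 5′ element, mRNAs with a 3′ element and mRNAs in which the search found none. The search, on the transcript strand, was for the loop CAGTGN between 2 arms of 5 bases that pair with each other, G with T allowed, with an unpaired C just before the first arm. An element with another loop would be missed by this search, also in TFRC. The sequences are DNA letters of GENCODE transcripts on GRCh38, written 5′ to 3′, and capitals mark the loop. The letters A to D only order the TFRC matches along the transcript and are not the published names of its elements.
FTH1 (5′, chr11:61967573-61967602, minus strand): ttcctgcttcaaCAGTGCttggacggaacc
FTL (5′, chr19:48965335-48965364, plus strand): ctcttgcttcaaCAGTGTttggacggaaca
SLC40A1 (5′, chr2:189580660-189580689, minus strand): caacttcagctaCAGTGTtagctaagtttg
TFRC A (3′, chr3:196050978-196051007, minus strand): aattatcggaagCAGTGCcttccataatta
TFRC B (3′, chr3:196050574-196050603, minus strand): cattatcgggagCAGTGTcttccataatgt
TFRC C (3′, chr3:196050509-196050538, minus strand): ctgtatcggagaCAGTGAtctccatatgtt
TFRC D (3′, chr3:196050462-196050491, minus strand): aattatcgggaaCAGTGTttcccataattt
SLC11A2 (3′, chr12:50988268-50988297, minus strand): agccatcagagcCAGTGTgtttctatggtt

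The FTH1 and FTL elements shared 26 of 30 letters. Letters of this form occurred in the 5′ untranslated regions of 36 of 18794 protein-coding genes (0.192%) and in the 3′ untranslated regions of 132 of 19076 (0.692%). SLC11A2 matched only when 1 unpaired base was allowed in the 3′ arm, a form found in the 3′ regions of 1.17% of genes. IREB2 also had a match of that looser form in its 3′ region, in 1 transcript. HMOX1, NCOA4 and ACO1 had no match. These are matches of letters and not measured binding sites.

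**Figure D1:**
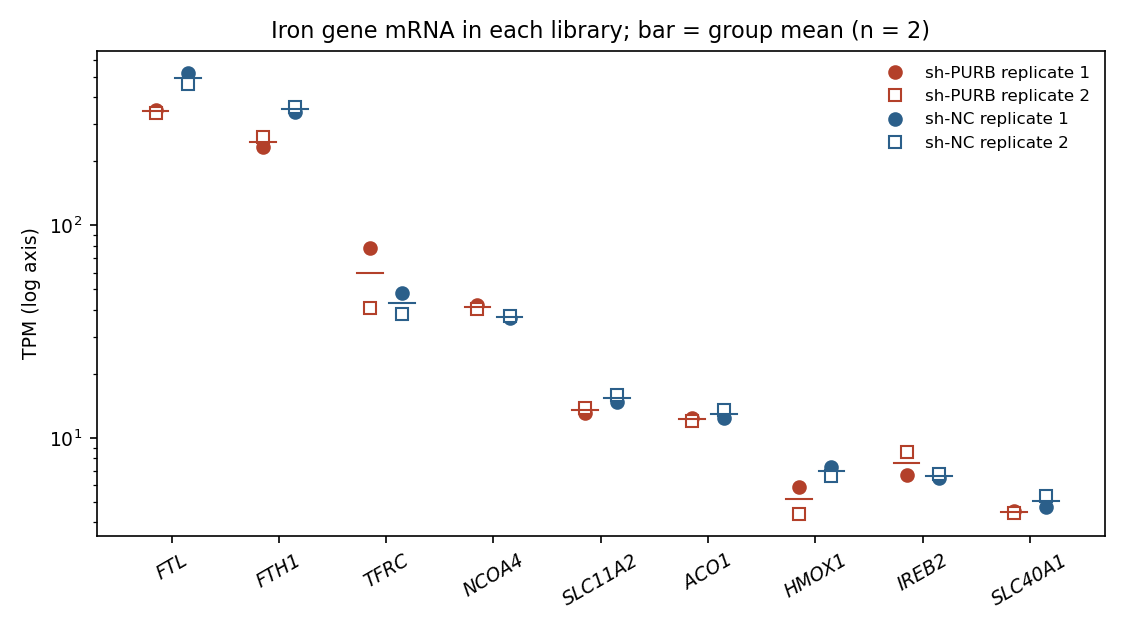
TPM (log axis) of the 9 iron genes in each library, sh-PURB left of sh-NC for each gene, with filled circles for replicate 1, open squares for replicate 2 and bars for group means (n = 2). FTL and FTH1 lie above all other members in every library and are lower in both sh-PURB libraries, while the TFRC points of sh-PURB stand far apart at 78.5 and 40.9 TPM.

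The ferritin chains were the most abundant members. By mean TPM the order in sh-NC was FTL, FTH1, TFRC, NCOA4, SLC11A2, ACO1, HMOX1, IREB2 and SLC40A1. In sh-PURB only HMOX1 and IREB2 changed places in that order. HMOX1 and IREB2 overlapped in sh-NC, TFRC and NCOA4 overlapped in sh-PURB, and so did HMOX1 and SLC40A1 in sh-PURB. The other neighbours in the order did not overlap between libraries of a group.

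FTH1, the heavy chain that oxidises iron for storage, was at 233.6 and 260.0 TPM in sh-PURB and at 343.6 and 361.3 TPM in sh-NC. Both sh-PURB libraries lay below both sh-NC libraries, and the mean was 70.0% of control (246.8 ± 18.7 TPM in sh-PURB and 352.4 ± 12.5 TPM in sh-NC, SD, n = 2 each). FTL, the light chain that helps to form the iron core, was at 348.3 and 339.5 TPM in sh-PURB and at 522.6 and 462.4 TPM in sh-NC. It too was lower in both sh-PURB libraries, with a mean at 69.8% of control (343.9 ± 6.23 TPM in sh-PURB and 492.5 ± 42.5 TPM in sh-NC, SD, n = 2 each). On the log2(TPM + 1) scale the difference was -0.51 for FTH1 (SE 0.0947, 95% interval -0.76 to -0.27 before adjustment). It was -0.51 for FTL as well (SE 0.0953, 95% interval -0.76 to -0.27 before adjustment). In bulk RNA, fewer cells that express a gene and less of its RNA per cell cannot be told apart.

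Neither ferritin difference passed the threshold of 0.05 after Benjamini-Hochberg adjustment over 14269 genes. The limma adjusted p was 0.103 for FTH1 and 0.104 for FTL, from unadjusted values of 0.00303 and 0.00311. When protein-coding genes alone were rescaled to a common sum and fitted, FTH1 passed (difference -0.46, limma adjusted p = 0.0463) and FTL did not (difference -0.46, limma adjusted p = 0.0641). Among all tested genes 0.287% were called, 0.0841% higher and 0.203% lower in sh-PURB. In the fit of protein-coding genes 2.93% were called, 1.13% higher and 1.8% lower. Among the 293 protein-coding genes with a mean of at least 100 TPM, 8.19% had a difference at or below that of FTH1, the ferritin genes included, and for 32.1% both sh-PURB libraries lay below both sh-NC libraries.

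Processed copies of the ferritin genes took almost no signal. The table lists 25 numbered FTH1 pseudogenes, of which 11 were above 0 in some library and the highest reached 1.14 TPM. It lists 16 numbered FTL pseudogenes, of which 4 were above 0 and the highest reached 0.351 TPM. Together they held at most 0.889% of the summed FTH1 signal and 0.201% of the summed FTL signal. With the copies added, the log2 TPM difference was -0.51 for FTH1 and -0.51 for FTL, each with an exact two-sided permutation p of 0.333, the smallest that 2 libraries against 2 allow. BEST1, a chloride channel gene, overlaps FTH1 on the opposite strand. It was at 1.31 and 1.42 TPM in sh-PURB and at 0.426 and 0.296 TPM in sh-NC, far below FTH1, and whether reads were assigned by strand is not stated. IREB2 likewise overlaps an antisense gene, AC027228.1, not analysed here.

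TFRC, the receptor for transferrin, was at 78.5 and 40.9 TPM in sh-PURB and at 47.9 and 38.4 TPM in sh-NC. The groups overlapped, because sh-PURB replicate 1 was far above the other libraries and sh-PURB replicate 2 lay between the controls. The mean was 1.38 times control (59.7 ± 26.6 TPM in sh-PURB and 43.2 ± 6.70 TPM in sh-NC, SD, n = 2 each). The log2 difference was 0.39 (SE 0.324, 95% interval -0.44 to 1.23, limma adjusted p = 0.630). Without sh-PURB replicate 1 it was -0.07 and without sh-PURB replicate 2 it was 0.86, so the sign rests on 1 library. SLC11A2, the endosomal and surface metal transporter, was at 13.2 and 13.8 TPM in sh-PURB and at 14.7 and 15.95 TPM in sh-NC. Its libraries did not overlap, but the difference of -0.17 did not pass the test (SE 0.121, 95% interval -0.48 to 0.14, limma adjusted p = 0.570).

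SLC40A1 encodes ferroportin, the iron exporter of the cell surface. It was at 4.51 and 4.42 TPM in sh-PURB and at 4.72 and 5.34 TPM in sh-NC, lower in both sh-PURB libraries by a small margin. The log2 difference of -0.14 did not pass (SE 0.151, 95% interval -0.53 to 0.25, limma adjusted p = 0.725). HMOX1, heme oxygenase 1, which frees iron from heme, was at 5.89 and 4.38 TPM in sh-PURB and at 7.31 and 6.60 TPM in sh-NC. Both sh-PURB libraries were below both controls, and the mean was 73.9% of control, but the difference of -0.38 did not pass (SE 0.182, 95% interval -0.86 to 0.09, limma adjusted p = 0.403).

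NCOA4 was the member whose sh-PURB libraries both exceeded both controls. It was at 42.4 and 40.5 TPM in sh-PURB and at 36.5 and 37.5 TPM in sh-NC, a mean of 1.12 times control. The difference of 0.16 did not pass the test (SE 0.0991, 95% interval -0.10 to 0.42, limma adjusted p = 0.514). IREB2, which encodes the regulatory protein that is degraded when iron is plentiful, was at 6.67 and 8.55 TPM in sh-PURB and at 6.44 and 6.76 TPM in sh-NC. ACO1, whose product is an aconitase when it holds an iron-sulfur cluster and an RNA-binding protein when it does not, was at 12.46 and 12.02 TPM in sh-PURB and at 12.42 and 13.52 TPM in sh-NC. Both regulators overlapped between groups. The difference was 0.17 for IREB2 (95% interval -0.26 to 0.60, limma adjusted p = 0.689) and -0.08 for ACO1 (95% interval -0.39 to 0.24, limma adjusted p = 0.821).

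**Figure D2:**
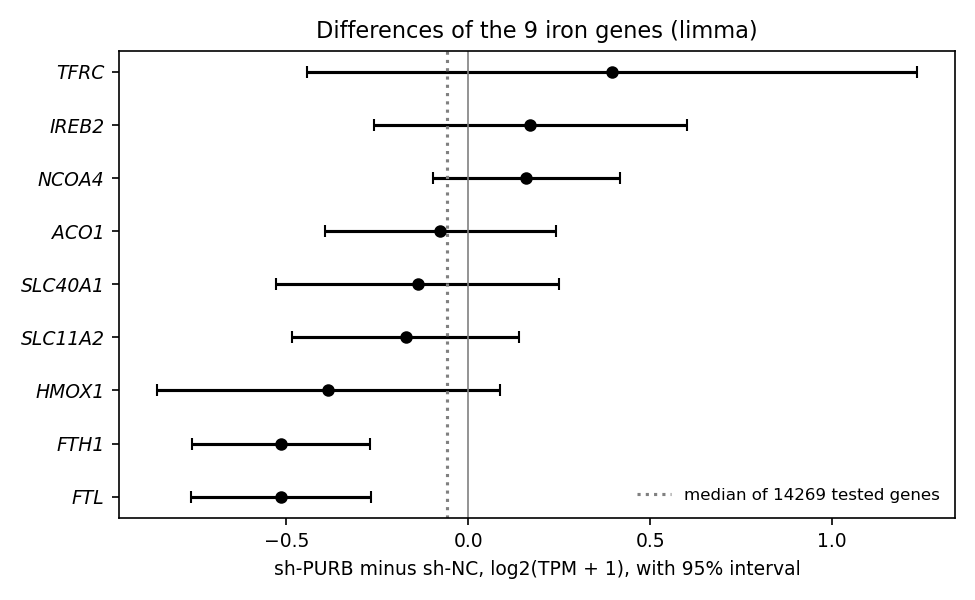
Differences of the 9 iron genes, sh-PURB minus sh-NC on the log2(TPM + 1) scale, with limma 95% intervals before adjustment; the dotted line is the median of all tested genes at -0.06. The intervals of FTL and FTH1 lie below 0 and those of the other 7 members span 0.

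Across the 9 members, 6 differences were below 0 and 3 above 0, where 58.4% of all tested genes were below 0. The median was -0.14, beside -0.06 over all tested genes. It was -0.21 without sh-NC replicate 1 (all genes -0.096) and -0.065 without sh-NC replicate 2 (all genes -0.020). With recomputed TPM it was -0.014 (all genes 0.063), and after median-ratio rescaling -0.047 (all genes 0.034). Both sh-PURB libraries lay below both controls for 5 members (FTH1, FTL, SLC40A1, SLC11A2 and HMOX1), where 29.3% of all tested genes did. They lay above both controls for NCOA4 alone, where 18.6% of all tested genes did, and 47.9% of genes did not overlap in one direction or the other. At an unadjusted p under 0.05 limma gave 2 members, both lower, where 9.53% of all tested genes were lower and 5.77% higher by that rule. No member was called over all genes. By place of the element, the 5′ group (FTH1, FTL, SLC40A1) was lower in both sh-PURB libraries for every gene, while of the genes with a 3′ match TFRC overlapped, SLC11A2 (looser form) was lower and IREB2 (looser form) overlapped.

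Ratios of members within a library do not depend on how libraries are scaled. TFRC over FTH1 was 0.336 and 0.157 in sh-PURB and 0.139 and 0.106 in sh-NC. Both sh-PURB libraries were higher, with a fold of 1.89 between geometric means and an exact two-sided permutation p of 0.333, the smallest possible here. FTH1 over FTL was 0.671 and 0.766 in sh-PURB and 0.657 and 0.781 in sh-NC. The fold between groups was 1.00, and in each group replicate 1 was below replicate 2, so the chains were lower by like amounts in sh-PURB while their ratio varied with the replicate number.

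TFRC over SLC40A1, import receptor over exporter, was 17.4 and 9.26 in sh-PURB and 10.2 and 7.20 in sh-NC, which overlap. IREB2 over ACO1 was 0.535 and 0.711 in sh-PURB and 0.519 and 0.4998 in sh-NC, higher in both sh-PURB libraries by a fold of 1.21 (exact two-sided permutation p = 0.333). Its log2 difference of 0.28 was 0.072 without sh-PURB replicate 2, and leaving out sh-PURB replicate 1 in its place gave 0.48. HMOX1 over FTH1 was 0.0252 and 0.0168 in sh-PURB and 0.0213 and 0.0183 in sh-NC, which overlap.

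**Figure D3:**
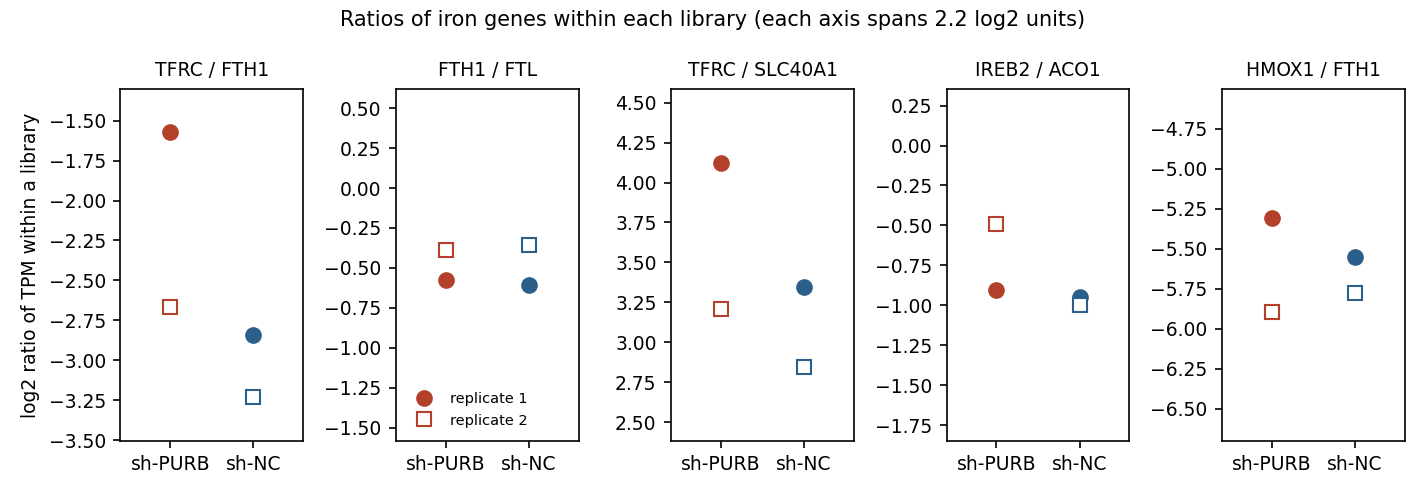
Log2 ratios of TPM between members within each library, sh-PURB left of sh-NC, with filled circles for replicate 1 and open squares for replicate 2; every axis spans the same range. TFRC over FTH1 and IREB2 over ACO1 are higher in both sh-PURB libraries, while the other 3 ratios overlap between groups.

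Other genes of iron handling were taken from fixed lists. Of 22 partners of uptake and release, 12 were tested, with 4 differences above 0 and 8 below 0, a balance that depended on scaling. After median-ratio rescaling 7 were above 0 and 5 below, and with TPM recomputed without dominant and mitochondrial genes 9 were above and 5 below. The lowest was CP, ceruloplasmin, the copper oxidase that works with ferroportin, at 0.291 and 0.204 TPM in sh-PURB and at 1.94 and 1.83 TPM in sh-NC. Its difference of -1.21 (SE 0.217) had a limma adjusted p of 0.0987 over all genes and 0.0119 among protein-coding genes alone. CP passed the filter of 1 TPM only through the sh-NC libraries, as did BMP6, so their tests rest on genes that were high in that group. BMP6, a growth factor that induces hepcidin in the liver, was at 31.8% of control (limma adjusted p = 0.180). STEAP3, the endosomal ferrireductase of the transferrin cycle, was at 1.23 times control (limma adjusted p = 0.405) and NEO1, a hemojuvelin-binding receptor, at 75.2% (limma adjusted p = 0.411). Transferrin (TF), hepcidin (HAMP) and the receptor TFR2 were among the 10 genes below the filter.

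Cytosolic iron chaperones and controllers of the regulatory proteins showed small differences. Of 13 genes 12 were tested, 6 above 0 and 6 below 0, with a median of 0.01 and none called by limma, over all genes or at an unadjusted p under 0.05. With recomputed TPM 11 were above 0 and 2 below, and after median-ratio rescaling 9 were above and 3 below. TAX1BP1, an autophagy receptor that acts with NCOA4, was at 88.2% of control, and SKP1 and FBXL5, parts of the ligase that degrades IREB2 protein, were at 91.1% and 1.11 times control. ZC3H12A, a ribonuclease known to cut TFRC mRNA, was at 2.23 and 2.34 TPM in sh-PURB and at 2.84 and 2.45 TPM in sh-NC (limma adjusted p = 0.749). 

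Genes of iron-sulfur cluster assembly, mitochondrial and cytosolic, and of mitochondrial iron import lay mostly above 0. Of 27 iron-sulfur cluster assembly genes 21 were above 0, with a median of 0.13. Both sh-PURB libraries lay above both controls for 11 (18.6% of all tested genes) and below both for 3 (29.3% of all tested genes). In limma 0 were called over all genes, and at an unadjusted p under 0.05 there were 3 higher (5.77% of all tested genes) and 0 lower (9.53%). GLRX3, a cytosolic glutaredoxin of cluster transfer, was at 29.7 and 25.9 TPM in sh-PURB and at 20.7 and 20.9 TPM in sh-NC. CIAPIN1 was at 1.36 times control, the chaperone HSPA9 at 1.35 times and the scaffold ISCU at 1.30 times, with limma adjusted p between 0.235 and 0.328 for these 4. Over the alternative settings this median ran from 0.11 without sh-PURB replicate 2 to 0.29 with TPM recomputed after leaving out dominant and mitochondrial genes.

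Of 8 tested genes of mitochondrial iron import and storage, 7 were above 0 (median 0.17) and 0 were called by limma. At an unadjusted p under 0.05 there were 1 higher (5.77% of all tested genes) and 1 lower (9.53% of all tested genes). SLC25A37, mitoferrin 1, an importer of iron into mitochondria, was lower in both sh-PURB libraries, at 18.6 and 16.5 TPM in sh-PURB and at 22.2 and 22.6 TPM in sh-NC. SLC25A28, of the same list, was higher in both, at 5.91 and 5.99 TPM in sh-PURB and at 5.25 and 5.80 TPM in sh-NC (limma adjusted p = 0.812). TMEM14C, a transporter of heme precursors, was at 1.17 times control. The ferritin of mitochondria, FTMT, was listed at 0 in every library.

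Heme genes were split. Of 18 tested genes 8 were above 0 and 10 below 0, with a median of -0.05 that was 0.12 with recomputed TPM. In limma 0 were called over all genes. At an unadjusted p under 0.05 there were 0 higher (5.77% of all tested genes) and 2 lower (9.53% of all tested genes). CPOX, an enzyme of heme synthesis, was at 1.90 and 2.12 TPM in sh-PURB and at 4.19 and 4.83 TPM in sh-NC, with limma adjusted p = 0.118 over all genes and 0.0504 among protein-coding genes alone. PGRMC1, a heme-binding membrane protein, was at 79.8% of control and the biliverdin reductase BLVRA at 81.2%. Of the other mRNAs known for iron-responsive elements, EPAS1, a hypoxia factor, was at 2.04 and 2.22 TPM in sh-PURB and at 3.40 and 5.54 TPM in sh-NC (limma adjusted p = 0.245). CDC14A and CDC42BPA overlapped between groups, and ALAS2 was listed at 0 in every library.

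HMOX1 and both ferritin genes are known targets of the activator NRF2 and the repressor BACH1, so genes of that circuit were set beside them. Of 16 tested genes 6 were above 0 and 10 below 0, with a median of -0.14 that was 0.00 with recomputed TPM. In limma 0 were called over all genes. At an unadjusted p under 0.05 there were 1 higher (5.77% of all tested genes) and 3 lower (9.53% of all tested genes). Among protein-coding genes alone 2 were called, both lower, where 1.13% of all genes in that fit were called higher and 1.8% lower. The 2 called were MAFF, a small MAF partner, at 35.5% of control (limma adjusted p = 0.00866 in that fit), and the quinone reductase NQO1 at 61.2% (limma adjusted p = 0.0281 in that fit). SLC7A11, the cystine importer, was at 2.05 times control. NFE2L2, which encodes NRF2, was at 14.3 and 14.7 TPM in sh-PURB and at 14.4 and 17.5 TPM in sh-NC, and BACH1 was at 35.5 and 41.7 TPM in sh-PURB and at 30.05 and 33.39 TPM in sh-NC.

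Enzymes of ferroptosis, a form of cell death that needs iron, held the 1 gene of these iron-related lists called over all genes. It was SAT1, a polyamine acetyltransferase, at 4.64 and 5.46 TPM in sh-PURB and at 17.4 and 20.6 TPM in sh-NC. It fell to 26.5% of control (limma adjusted p = 0.0464), and this call, like all others, was lost with a pseudocount of 0.1 or without a filter. Of 10 tested genes 5 were above 0 and 5 below 0. GPX4, the peroxidase that repairs lipid peroxides, was at 132.6 and 136.7 TPM in sh-PURB and at 176.9 and 175.2 TPM in sh-NC, 76.5% of control (limma adjusted p = 0.139). CISD1, an iron-sulfur protein of the outer mitochondrial membrane, was at 1.41 times control and the acyltransferase LPCAT3 at 78.6%, and neither passed the test.

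**Figure D4:**
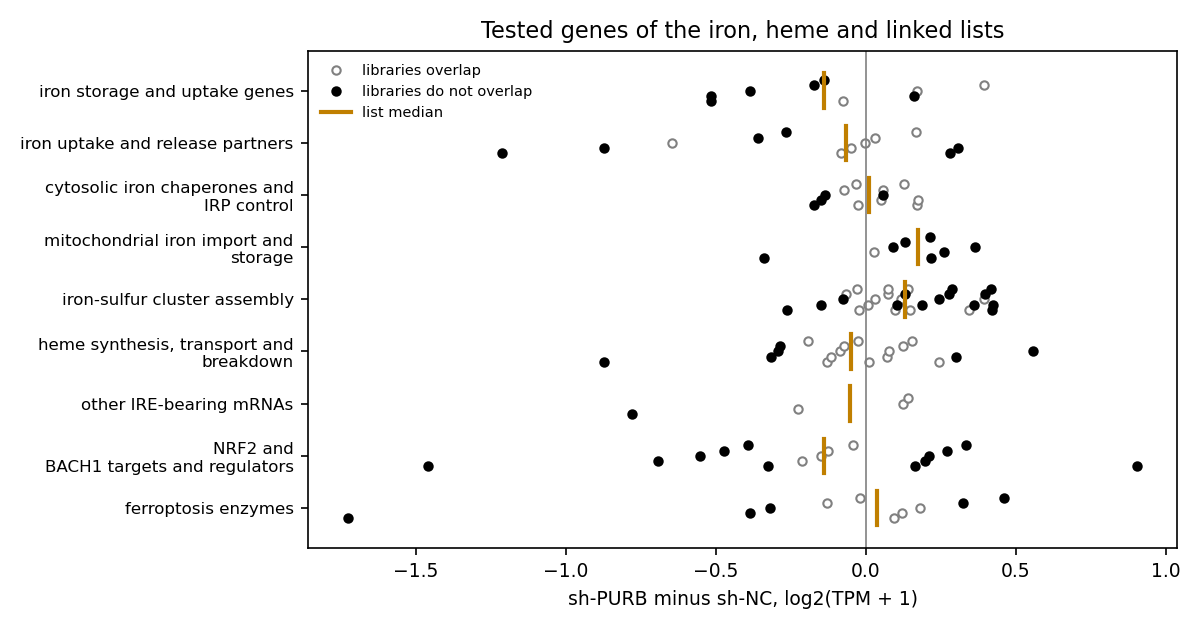
Difference of each tested gene, sh-PURB minus sh-NC on the log2(TPM + 1) scale, in 9 lists, with filled points where the libraries of the groups do not overlap, open points where they do, and a bar at each list median. The medians of the iron-sulfur and mitochondrial iron lists lie at 0.13 and 0.17, and that of the 9 iron genes at -0.14.

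Genes with the pattern most like the ferritin genes were ranked by the Euclidean distance between their library deviations of log2(TPM + 1), over the 4 libraries and 7573 other protein-coding genes of at least 5 TPM. The nearest to FTH1 were WDR54, KDELR3 and EGFL7, at 69.4%, 69.6% and 70.0% of control, and FTL was 447th. The nearest to FTL were IFT52, GNAI2 and KLRC2, at 69.2%, 70.8% and 67.9% of control, and FTH1 was 224th. The nearest to TFRC were GRPEL1, TRMT6 and TEX264, whose highest value was also in sh-PURB replicate 1. With 4 libraries many genes lie this close, so the ranks are a description.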

How the data were processed

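The authors deposited TPM per gene symbol for 4 libraries, in 1 table that equals the 4 single-library tables. Named without a role in the submitters' processing notes are kallisto 0.44.0, bcl2fastq 2.19, DESeq2, sleuth and 2 genome builds, GRCm38 and GRCh38. Being shares, TPM values of all genes shift when abundant RNAs change. A row with a blank name (0.921% to 1.66% of a library) was left out.

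The 14269 genes that reached 1 TPM in 2 or more libraries were compared as log2(TPM + 1) in limma 3.58.1 under R 4.3.3, with a mean-variance trend and p-values adjusted by Benjamini-Hochberg across them, without a replicate block. This scale understates the change of low genes. Percentages and times of control are ratios of mean TPM. Ratios within libraries had exact permutation tests. Coordinates and transcript sequences came from GENCODE release 29 on GRCh38. Alternatives covered the pseudocount, filter, scaling, gene type, moderation, replicate block and leaving out each library.

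The members and lists were chosen with earlier results of these data known. Named genes were the 9 members, PURB, up to 4 genes of smallest unadjusted p per list and the nearest patterns; some are not reported here. Other genes named, among them BEST1, TF, HAMP, TFR2, FTMT, SLC25A28, ALAS2, NFE2L2 and BACH1, SPP1, and the bone and red cell markers, were chosen after their values were seen.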

Additional observations from a re-analysis of the deposited data

How the results depend on the processing

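Over 15 alternatives the 9 iron genes gave 134 differences, of which 131 kept their direction and 1 passed the threshold, FTH1 among protein-coding genes alone. The 3 that turned round were TFRC without sh-PURB replicate 1 (-0.067, against 0.857 without sh-PURB replicate 2) and ACO1 after median-ratio rescaling (0.026) and with TPM recomputed without dominant and mitochondrial genes (0.069). That recomputation moved the median of all genes from -0.06 to 0.06, and relative to the median FTH1 was at -0.46 as deposited and -0.42 recomputed, and TFRC at 0.45 and 0.49. FTH1 ran from -0.59 to -0.36 and FTL from -0.60 to -0.36.

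In place of 41 calls over all genes, limma gave 0 with a pseudocount of 0.1, without a filter and without a trend, 121 with a filter at TPM 5, 84 after median-ratio rescaling, 176 with recomputed TPM (99 higher and 77 lower, in place of 12 and 29), 407 among protein-coding genes, 125 with robust moderation, and 0 to 155 when 1 library was left out (0 without either sh-PURB library, 131 without sh-NC replicate 1 and 155 without sh-NC replicate 2). PURB passed among protein-coding genes alone (-1.07, limma adjusted p = 0.0379, in place of 0.102). The causes were not tested.

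With the replicate block limma gave 118 calls, and FTH1 and FTL had adjusted p-values of 0.0677 and 0.0681. Same-numbered libraries deviated with a correlation of 0.193 across genes, but with 2 pairs and no label for a shared batch the libraries share only a number. The log2 ratio of FTH1 over FTL, -7.66e-05, was 0.000431 with a pseudocount of 1 on both genes and ran from -0.12 to 0.12 without 1 library. HMOX1 over FTH1 ran from -0.23 to 0.36, and TFRC over FTH1 from 0.37 without sh-PURB replicate 1 to 1.46 without sh-PURB replicate 2. TPM keeps no depth, so counting error could not be given.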
